A study of Mus musculus with 35 samples.

Results

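Potassium channels set the resting membrane potential of astrocytes and let these cells take up the potassium that neurons release. The genes are grouped by structure. Voltage-gated channels open on depolarization and carry auxiliary subunits, inward rectifiers and two-pore-domain channels pass current near rest, and a further group opens when intracellular calcium or sodium rises. In astrocytes the inward rectifier encoded by Kcnj10 (Kir4.1) is the best known of them. The genes described here are the others: every gene whose symbol starts with Kcn, one or more further letters and a digit, with Kcnj10 left out. Of 62 symbols with this form, 61 remained out of 19573 genes in the deposited table. All 61 passed the filter on low values, which asked that 3 or more libraries reach an FPKM of 1. They comprised 30 voltage-gated pore subunits, 8 voltage-gated auxiliary subunits, 9 inward rectifiers, 6 two-pore-domain channels, 6 calcium- or sodium-activated channels, 1 auxiliary subunit of the BK channel (Kcnmb4) and 1 antisense transcript that the symbol rule also matches (Kcnq1ot1).

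RNA was measured in bulk in 35 libraries of cortical astrocytes purified by flow cytometry. All mice were P30-35 and of the Aldh1l1egfp genotype, in which the promoter of the astrocyte gene Aldh1l1 drives a green fluorescent protein, so the control animals carried the reporter as well. Females received saline and were sampled at 3 h (n = 4), 24 h (n = 5) or 72 h (n = 4), or received 5 mg/kg lipopolysaccharide (LPS), a bacterial cell wall product that triggers inflammation, and were sampled at 3 h (n = 5), 24 h (n = 4) or 72 h (n = 3). Males were sampled at 24 h, with saline (n = 5) or LPS (n = 5). The labels do not say whether the libraries of a group came from separate animals, and p-values therefore reflect only how far the libraries scatter, which may in part be technical. Levels are FPKM, a measure of fragments per length of transcript and per depth of the library. LPS was compared with saline of the same time and sex with limma on log2(FPKM + 1), and a gene is called higher or lower at a Benjamini-Hochberg adjusted p under 0.05 over 19426 genes. A fold change on this scale understates the change of genes with low values.

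The summed level of 10 astrocyte markers was 5912 to 12982 FPKM per library, against 138.6 to 418.2 for 13 neuronal markers, 206.1 to 2194 for 10 oligodendrocyte markers and 48.7 to 908.9 for 14 microglial markers. Mitochondrial transcripts took 4.86% to 24.4% of the FPKM of a library. Replicates 4 and 5 of LPS at 3 h (7.17% and 7.63%) and replicates 3 and 4 of saline at 72 h (5.96% and 5.43%) stood below the other libraries of their groups in this share. So did replicates 4 and 5 of male LPS at 24 h (5.32% and 4.86%). At 24 h the deposited numbers came in 2 formats, single precision in 11 libraries and double precision in the rest.

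In saline libraries a few genes carried most of the potassium channel RNA. The means of the 61 genes summed to 589.9 FPKM over the 18 saline libraries. The pair of highest genes made up 55.0% of that sum, and the next gene brought the share to 64.5%. A mean of at least 1 FPKM was reached by 46 of the 61 genes and a mean of at least 10 by 7. The median of the 61 means was 2.35 FPKM, and the median over all genes of the table was 4.95. By family, the 6 two-pore-domain channels took 39.6% of the sum, the 6 calcium- or sodium-activated channels 24.0%, the 30 voltage-gated pore subunits 15.4%, the 9 inward rectifiers 11.7% and the 8 voltage-gated auxiliary subunits 8.25%. These shares leave out Kcnj10, itself an inward rectifier, at 35.1 FPKM. The summed means were 91.0 FPKM for the voltage-gated pore subunits and 69.0 for the inward rectifiers, so their order depends on that exclusion.

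Kcnk1, which encodes the two-pore-domain channel TWIK-1, had the highest level, 218.9 ± 68.8 FPKM (SD, n = 18 libraries), with a range of 132.4 to 370.3. Kcnn2, which encodes the small-conductance calcium-activated channel SK2, followed at 105.5 ± 30.7 FPKM, with a range of 66.6 to 173.7. The ranges of this pair overlapped across libraries. Kcnj16, which encodes Kir5.1, an inward rectifier subunit that pairs with Kir4.1, came next at 55.8 ± 13.0 FPKM. For reference, its partner gene Kcnj10 had 35.1 ± 7.06 FPKM in the same libraries.

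Kcna2, which encodes the voltage-gated channel Kv1.2, averaged 28.0 ± 9.39 FPKM, and Kcnip3, which encodes the Kv4-binding calcium sensor KChIP3, averaged 23.2 ± 8.25 FPKM. Their means lay within 1 SD of each other, and their order was not tested. Kcnn3 (SK3) had 17.9 ± 3.07 FPKM and Kcne1l, a single-pass auxiliary subunit, 11.99 ± 3.41 FPKM. Below them came Kcnk2 (TREK-1, a two-pore-domain channel opened by stretch and lipids) at 8.95 ± 3.45 FPKM, Kcnt1 (the sodium-activated channel Slack) at 7.78 ± 4.005 FPKM and Kcnma1 (the pore of the large-conductance BK channel) at 6.66 ± 2.39 FPKM. The values of these 3 genes overlapped across libraries, and the order of their means was not tested. Ranked by the median in place of the mean, 9 of these 10 genes remained among the top 10.

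Genes that sit side by side in the genome differed in level. On chromosome 11 (GRCm38) Kcnj16 and Kcnj2, which encodes Kir2.1, lie 38.2 kb apart, and Kcnj2 had 0.691 ± 0.550 FPKM against 55.8 for Kcnj16. On chromosome 3, Kcna3 lies 63.1 kb from Kcna2 and had 1.49 ± 0.715 FPKM against 28.0. On chromosome 1, Kcnj9, which encodes a G protein-gated inward rectifier (Kir3.3), had 2.51 ± 1.95 FPKM, 11.9 kb from Kcnj10. These gaps are between gene ends in GENCODE M21.

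At the low end, 15 genes had a saline mean under 1 FPKM. Kcng2, which encodes Kv6.2, a silent subunit that forms channels only together with Kv2 subunits, was the lowest of all at 0.337 FPKM and was listed at 0 in 2 saline libraries. The pore subunits of ATP-sensitive potassium channels were low as well: Kcnj11 (Kir6.2) averaged 0.566 FPKM, and Kcnj8 (Kir6.1) ran from 0.323 to 2.98 FPKM over the saline libraries. Kcnk13, which encodes THIK-1, a two-pore-domain channel known from microglia, averaged 0.848 FPKM. Some of the 61 genes overlap other annotated genes. Use of strand in the counting is not given in the sources used here, so reads of Kcnk1, Kcnn2, Kcnk2, Kcnma1, Kcnd3, Kcng2, Kcnj9, Kcnab2, Kcnab3, Kcna3 and Kcna6 cannot be told from those of antisense genes annotated over them. The same holds for Kcnh3 and Mcrs1, Kcnab2 and Nphp4, and Kcnh1 and Hhat, which overlap as protein-coding genes.

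**Figure D1:**
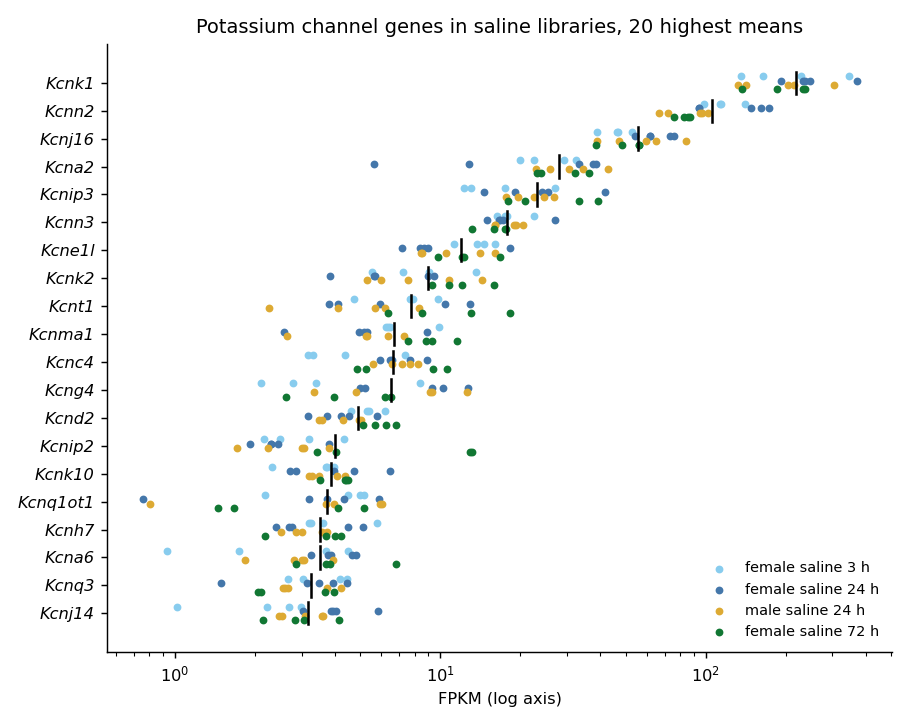
FPKM of the 20 potassium channel genes with the highest saline means, on a log axis, one point per saline library coloured by group, with the mean over 18 libraries as a vertical bar. Kcnk1 and Kcnn2 stand at the top with means of 218.9 and 105.5 FPKM, and the points of the 4 saline groups overlap for most genes.

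The saline groups of females and males at 24 h were also compared with each other. None of the 61 genes was called, where 0.0515% of all genes tested were. With no adjustment 4 of the 61 had p under 0.05 (2.39% of all genes did), and the authors' deposited DESeq2 results also called 0, with 0.0732% of all genes called there. Kcnn2 had the smallest of these p-values. Its female libraries held 173.7, 160.8, 147.4, 94.2 and 94.2 FPKM and its male libraries 95.3, 102.0, 96.7, 72.0 and 66.6 FPKM. The female values were higher by 0.60 ± 0.19 on the log2 scale (SE) with overlapping groups, and the adjusted p was 1.0. In both sexes the 3 single-precision libraries held the highest values and the double-precision libraries the lowest.

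At 3 h after LPS, 1 of the 61 genes was called, Kcng2, which was higher. Over all genes tested 2.38% were called. Its libraries held 2.99, 5.64, 2.10, 4.28 and 5.25 FPKM with LPS and 0.221, 0.386, 0.663 and 1.38 FPKM with saline. Every LPS library lay above every saline library. Kcng2 rose by 1.59 ± 0.31 on the log2 scale (SE, limma adjusted p = 0.001147). It lost the call with a pseudocount of 0.1 (adjusted p = 0.0647), which gives more weight to its saline values near 0. In the authors' deposited table its log2 fold change at 3 h was 1.92.

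Most of the other genes had small positive values at 3 h that did not pass the test. The log2 fold change was above 0 in 51 of the 61 genes with a median of 0.21, where the median over all genes tested was 0.02. It was above 0 in 27 of the 30 voltage-gated pore subunits, 6 of 6 two-pore-domain channels and 6 of 9 inward rectifiers. With no adjustment 13 of the 61 had p under 0.05, or 21.3%, where 12% of all genes did. Neuronal markers leaned the same way, with 10 of 13 at the higher mean under LPS (summed level 247.7 to 366.6 FPKM with LPS, 227.4 to 309.0 with saline). So did oligodendrocyte (8 of 10), oligodendrocyte precursor (7 of 10) and astrocyte markers (7 of 10). Pericyte and smooth muscle markers had 6 of 11 higher and ependymal markers 2 of 8. Of the marker sums, only the neuronal one was tried as a covariate. With the log2 neuronal sum as a covariate the median of the 61 was 0.15, against 0.03 for all genes. Of 14 microglial markers 0 had the higher mean under LPS (145.6 to 247.6 FPKM with LPS, 222.0 to 426.4 with saline). Kcnn2 is an example: its LPS libraries held 160.0, 154.6, 164.7, 196.4 and 192.4 FPKM and its saline libraries 140.3, 113.8, 98.8 and 113.3 FPKM. The groups did not overlap, yet the difference of 0.58 ± 0.20 had a limma adjusted p of 0.168. It was called once number format entered the fit as a covariate (adjusted p = 0.0191). All libraries at 3 h had the double-precision format, so this covariate could not adjust the 3 h difference. It stayed at 0.58, and only the estimate of the spread changed. Kcnab2, which encodes the Kvβ2 subunit that binds Kv1 channels, ran from 1.18 to 3.48 FPKM with LPS and from 0.853 to 1.06 with saline, again without overlap, at an adjusted p of 0.281. The authors' deposited table called Kcnab2 and Kcnab3, another gene of that family, at 3 h in addition to Kcng2, with 3.43% of all genes called there.

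Among the high genes, Kcnk1 changed by 0.25 ± 0.27, Kcnj16 by -0.28 ± 0.36 and Kcna2 by -0.72 ± 0.41 on the log2 scale at 3 h, none of them called. Kcna2 held 11.1, 11.2, 28.6, 21.1 and 10.5 FPKM with LPS and 19.9, 29.3, 32.4 and 22.5 FPKM with saline. Its LPS group split into 3 low libraries and 2 that overlapped saline. With LPS replicates 4 and 5 left out for their low mitochondrial share, the number of members called at 3 h stayed at 1. Kcng2 was still called, at 1.43 (adjusted p = 0.0176). The summed endothelial markers did not overlap between the groups at 3 h (64.8 to 113.1 FPKM with LPS, 142.5 to 205.6 with saline, 2 of 12 markers with the higher mean under LPS, none listed at 0). Their part in these values was not tested. In bulk RNA, fewer cells of a type and less RNA per cell cannot be told apart.

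At 24 h after LPS in females, 3 of the 61 genes were called, all higher: Kcnt1, Kcnd3 and Kcng2. Over all genes tested 3.34% were called. Kcnt1, a sodium-activated potassium channel that in neurons carries a slow outward current after bursts of firing, had the largest change. Its LPS libraries held 61.6, 83.1, 73.8 and 11.3 FPKM and its saline libraries 5.92, 10.4, 13.0, 4.12 and 3.81 FPKM. The first 3 LPS libraries lay far above saline, and replicate 4 fell inside the saline range. Kcnt1 rose by 2.61 ± 0.43 on the log2 scale (limma adjusted p = 1.591e-04), and the 95% interval ran from 1.72 to 3.49. LPS replicate 4 is also the one library of this group in the double-precision format. Among double-precision libraries alone, where it is the only LPS library and is assumed to vary like the other groups, the difference was 1.31 at an adjusted p of 1.0. Among single-precision libraries it was 2.83 (adjusted p = 1.749e-04). Kcnt1 spans chr2:25863734-25918273 on the plus strand, with no other annotated gene over it.

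Kcnd3, which encodes Kv4.3, a pore subunit of fast-inactivating A-type channels, was called in females with no overlap between groups. Its LPS libraries held 5.19, 5.45, 6.73 and 6.68 FPKM and its saline libraries 2.43, 3.42, 2.33, 1.45 and 1.71 FPKM. The rise was 1.12 ± 0.25 (limma adjusted p = 0.004807). Within either number format alone it was 0.87 and 1.57, with adjusted p of 0.0780 and 0.280. Kcng2 held 3.13, 3.398, 1.44 and 0.359 FPKM with LPS and 0.199 to 0.397 FPKM with saline. Its lowest LPS value, again in replicate 4, overlapped saline. The rise of 1.10 ± 0.31 was called at an adjusted p of 0.0393 and lost in 14 of 23 alternatives, among them the omission of any one of 8 of the 9 libraries (highest adjusted p 0.238).

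Of the families, 1 of 6 calcium- or sodium-activated channels and 2 of 30 voltage-gated pore subunits were called in females at 24 h, and 0 of 9 inward rectifiers, 0 of 6 two-pore-domain channels and 0 of 8 auxiliary subunits. The median log2 fold change of the 61 genes was 0.08, against 0.05 for all genes, with 34 above 0. Of 8 ependymal markers 7 had the higher mean under LPS, with summed levels of 49.0 to 82.2 FPKM against 21.4 to 55.4 with saline. The same was true of 8 of 12 endothelial, 8 of 14 microglial, 6 of 10 astrocyte and 6 of 13 neuronal markers. It held for 5 of 11 pericyte and smooth muscle, 3 of 10 oligodendrocyte precursor and 2 of 10 oligodendrocyte markers. The summed levels overlapped between the groups for every list, and the part of these cell types in the changes was not tested.

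Kcnj16 showed the lowest log2 fold change of the 61 in females at 24 h and was not called. Its LPS libraries held 5.77, 44.9, 56.9 and 64.4 FPKM and its saline libraries 73.3, 76.1, 61.8, 54.1 and 61.4 FPKM. Replicate 1 stood far below every other library of the series, while Kcnj10 in that same library was 29.8 FPKM, next to 29.8, 30.3 and 51.4 in the other LPS libraries. The Kcnj16 difference was -0.9996 ± 0.36 (limma adjusted p = 0.139) and passed the threshold without LPS replicate 4, at -1.33 (adjusted p = 0.0242). That fit kept the low replicate 1. The remaining LPS libraries, at 44.9 to 64.4 FPKM, overlapped saline at 54.1 to 76.1 FPKM, so the difference leans on replicate 1. Kcnk1 held 185.6, 214.5, 145.3 and 154.7 FPKM with LPS and 192.8 to 370.3 FPKM with saline. The groups overlapped and the difference of -0.53 ± 0.27 was not called (adjusted p = 0.376). With the mitochondrial share as a covariate it was -0.81 (adjusted p = 0.003084), in a fit that called 5 members and 4.49% of all genes.

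**Figure D2:**
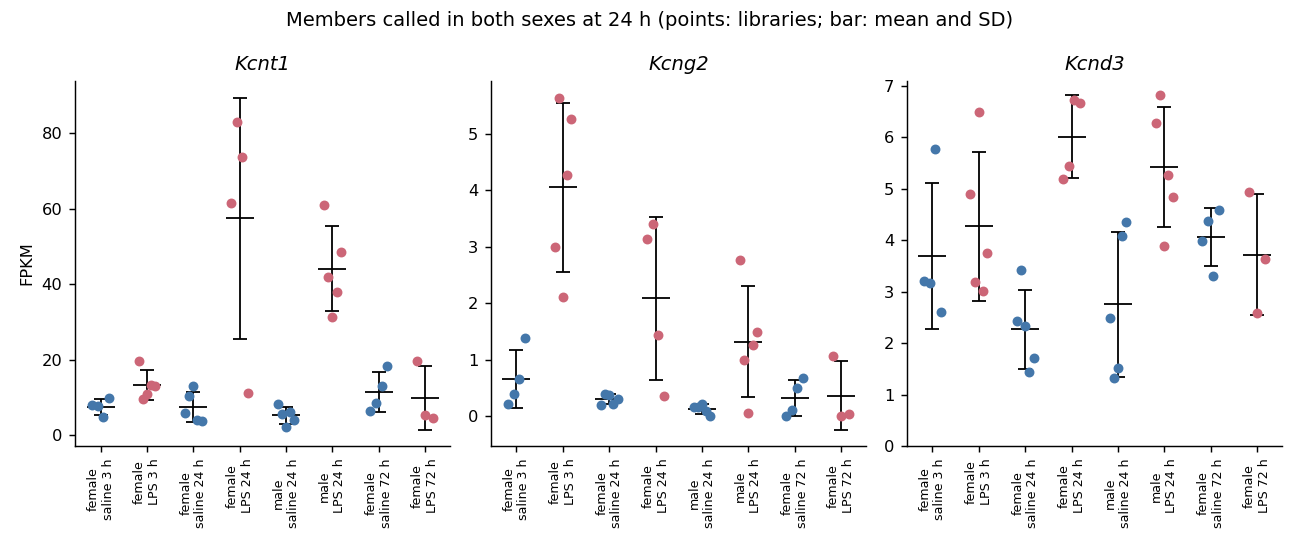
FPKM of Kcnt1, Kcng2 and Kcnd3 in each of the 35 libraries (points, blue for saline and red for LPS) with the mean and SD of each of 8 groups. Kcnt1 is high with LPS at 24 h in both sexes except for one female library at 11.3 FPKM, Kcng2 is highest with LPS at 3 h, and at 72 h LPS and saline overlap for all 3 genes.

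In males at 24 h more of the genes were called. LPS libraries were higher for 10 of the 61 and lower for 1. Together these are 18.03% of the members, where 8.9% of all genes tested were called. The distribution of all genes was itself shifted in males, with a median log2 fold change of 0.18. The median of the 61 genes was 0.30. Centring each library on its median ratio removed the shift and left 7 members called, 6 higher and 1 lower, with 6.98% of all genes called. Kcnip3, Kcng2, Kcnd3 and Kcnh5 were no longer called after that centring.

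Kcnt1 was again the largest change. Its male LPS libraries held 60.9, 42.0, 31.2, 37.8 and 48.5 FPKM and its saline libraries 8.28, 5.66, 2.25, 6.20 and 4.10 FPKM. The groups were far apart, the lowest LPS library standing above the highest saline library. Kcnt1 rose by 2.89 ± 0.41 (limma adjusted p = 1.944e-05). It was called in 24 of 24 alternatives, with a log2 fold change from 2.39 to 3.14, and within the number formats it was 3.14 and 2.71. Kcnd3 held 6.28, 6.82, 3.89, 5.27 and 4.85 FPKM with LPS and 2.49, 1.33, 1.52, 4.08 and 4.36 FPKM with saline. The groups overlapped at their edges, and the rise was 0.84 ± 0.23 (adjusted p = 0.0227). In double-precision libraries alone it was 0.11, and the call was lost without saline replicate 2 or 3 (adjusted p up to 0.0724). Kcng2 ran from 0.0566 to 2.77 FPKM with LPS and from 0 to 0.214 FPKM with saline. It rose by 0.93 ± 0.29 (adjusted p = 0.0428), a call lost in 14 of 24 alternatives. Leaving out any one of 8 of the 10 libraries ended it (adjusted p up to 0.113).

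Of the 8 auxiliary subunits, 3 rose and 1 fell in males. Kcnip2 encodes KChIP2, which like KChIP3 binds Kv4 channels. Its LPS libraries held 6.75, 6.63, 4.79, 7.64 and 9.22 FPKM and its saline libraries 1.71, 3.02, 3.06, 3.81 and 2.24 FPKM, with no overlap. The rise was 1.09 ± 0.30 (limma adjusted p = 0.0203). Of 24 alternatives 7 ended the call, including those without saline replicate 1 or 5 and without LPS replicate 4 or 5 (adjusted p up to 0.0714). Kcnip3 held 36.6, 30.7, 39.4, 67.2 and 54.2 FPKM with LPS and 22.6, 24.6, 26.8, 19.6 and 17.6 FPKM with saline. All LPS libraries stood above all saline libraries. The highest were replicates 4 and 5, the male LPS libraries with the lowest mitochondrial share (5.32% and 4.86%). The rise of Kcnip3 was 0.96 ± 0.28 (adjusted p = 0.0310), and the call was lost without LPS replicate 4 (0.81, adjusted p = 0.0998), without LPS replicate 5, or without saline replicate 1, 4 or 5. Kcnab2 held 1.52, 3.14, 2.64, 4.26 and 4.02 FPKM with LPS and 0.448, 1.19, 1.62, 1.47 and 0.625 FPKM with saline. The lowest LPS library overlapped saline, and Kcnab2 rose by 0.98 ± 0.26 (adjusted p = 0.0187). For Kcnab2 as well 7 of 24 ended the call, including those without any one of the same 4 libraries (adjusted p up to 0.0650).

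Kcne1l was the one gene called lower in males. It encodes an auxiliary subunit that reduces the current of the voltage-gated channel Kv7.1 when the human proteins are expressed together. Its LPS libraries held 2.56, 5.00, 7.25, 4.92 and 6.67 FPKM and its saline libraries 10.5, 8.43, 14.1, 8.56 and 16.1 FPKM. The groups did not overlap, and Kcne1l fell by 1.01 on the log2 scale (SE 0.25, limma adjusted p = 0.0103). In females at 24 h it held 4.28, 5.94, 5.43 and 8.56 FPKM with LPS and 7.17 to 18.3 FPKM with saline. That difference, -0.64 ± 0.26, was not called (adjusted p = 0.228).

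Among pore subunits, Kcnj9 was the one inward rectifier of 9 called. Its LPS libraries held 4.08, 5.56, 4.43, 6.55 and 5.84 FPKM and its saline libraries 1.04, 1.55, 2.34, 4.15 and 0.994 FPKM. One saline library reached the lower edge of the LPS group, and the rise was 1.14 ± 0.26 (limma adjusted p = 0.00534). Kcnj10, 11.9 kb away, differed by -0.13 ± 0.17 (adjusted p = 0.635) and was not called. Kcnh3, a voltage-gated channel of the Elk family that damps excitability in mouse forebrain neurons, held 3.09, 4.29, 4.03, 4.59 and 6.89 FPKM with LPS and 1.01, 2.23, 1.65, 2.38 and 1.06 FPKM with saline. The groups did not overlap, and Kcnh3 rose by 1.07 ± 0.30 (adjusted p = 0.0233). Again 7 of 24 alternatives ended the call, including those without saline replicate 1 or 5 and without LPS replicate 4 or 5 (adjusted p up to 0.0869). Kcnh5, an Eag family channel named here after its values were seen, rose by 0.71 ± 0.20 (adjusted p = 0.0230), from 0.686 ± 0.211 to 1.76 ± 0.437 FPKM (SD, n = 5 each). It was no longer called in 7 of 24 alternatives, including those without saline replicate 3 or 5 and without LPS replicate 1 (adjusted p up to 0.0569).

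Kcnk1, Kcnn2, Kcnj16 and Kcna2, the genes with the highest saline means, were not called in males, and neither was Kcnn3. Kcnip3, Kcne1l and Kcnt1, also among the highest in saline, were called, as described above. Kcnk1 differed by 0.11 ± 0.25, Kcnn2 by 0.30 ± 0.19, Kcnj16 by -0.11 ± 0.34 and Kcnn3 by -0.36 ± 0.18 on the log2 scale. Kcna2 held 29.3, 11.4, 15.0, 18.4 and 15.1 FPKM with LPS and 42.6, 22.9, 25.8, 30.6 and 34.6 FPKM with saline. Of the LPS libraries, 4 lay below every saline library and 1 overlapped, and the difference of -0.81 ± 0.38 had a limma adjusted p of 0.151. It passed the threshold when the fit held the male libraries alone (adjusted p = 0.0410). The authors' deposited table called 9 members higher and 3 lower in males, where it called 19.2% of all genes, 8.96% higher and 10.2% lower, so the total of 12 of 61 is close to the share of all genes. It shared 9 calls with limma, and it called Kcna2 and Kcnn3 lower and Kcnd1 higher, which limma did not. Limma in turn called Kcnab2 and Kcnd3 higher, which the deposited table did not call.

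Library properties moved with treatment in males. The mitochondrial share was 4.86% to 16.3% with LPS and 16.8% to 23.4% with saline, with no overlap. With this share as a covariate 2 of the 11 members stayed called, Kcnt1 at 2.39 (adjusted p = 0.0014) and Kcnd3. Over all genes the same fit called 1.77% in place of 8.9%. The summed ependymal markers did not overlap either, at 54.6 to 87.9 FPKM with LPS and 21.4 to 39.0 with saline. All 8 of that list had the higher mean under LPS, and Ccdc153, Tmem212, Dynlrb2 and Rsph1 were listed at 0 in at least 1 of the 10 libraries. The summed neuronal markers ran from 194.2 to 389.7 FPKM with LPS and from 161.0 to 293.9 with saline, 10 of 13 with the higher mean under LPS and none listed at 0. With the log2 neuronal sum as a covariate 10 of the 11 stayed called, all but Kcnd3 (adjusted p = 0.0551). In that fit the median of the 61 genes was 0.19, below the 0.22 of all genes, of which 11.7% were called. Endothelial markers had the higher mean under LPS in 11 of 12 (summed level 81.3 to 194.8 FPKM with LPS, 42.6 to 114.9 with saline), pericyte and smooth muscle markers in 10 of 11 (44.6 to 91.9 and 36.4 to 60.8) and microglial markers in 11 of 14 (143.4 to 356.4 and 72.2 to 248.5). The part of the mitochondrial share and of ependymal, endothelial, pericyte and microglial RNA in the other changes was not tested beyond these values. By number format, 3 members were called in males among single-precision libraries and 1 among double-precision libraries, where each group holds 2 or 3, with 0.808% and 1.26% of all genes called.

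**Figure D3:**
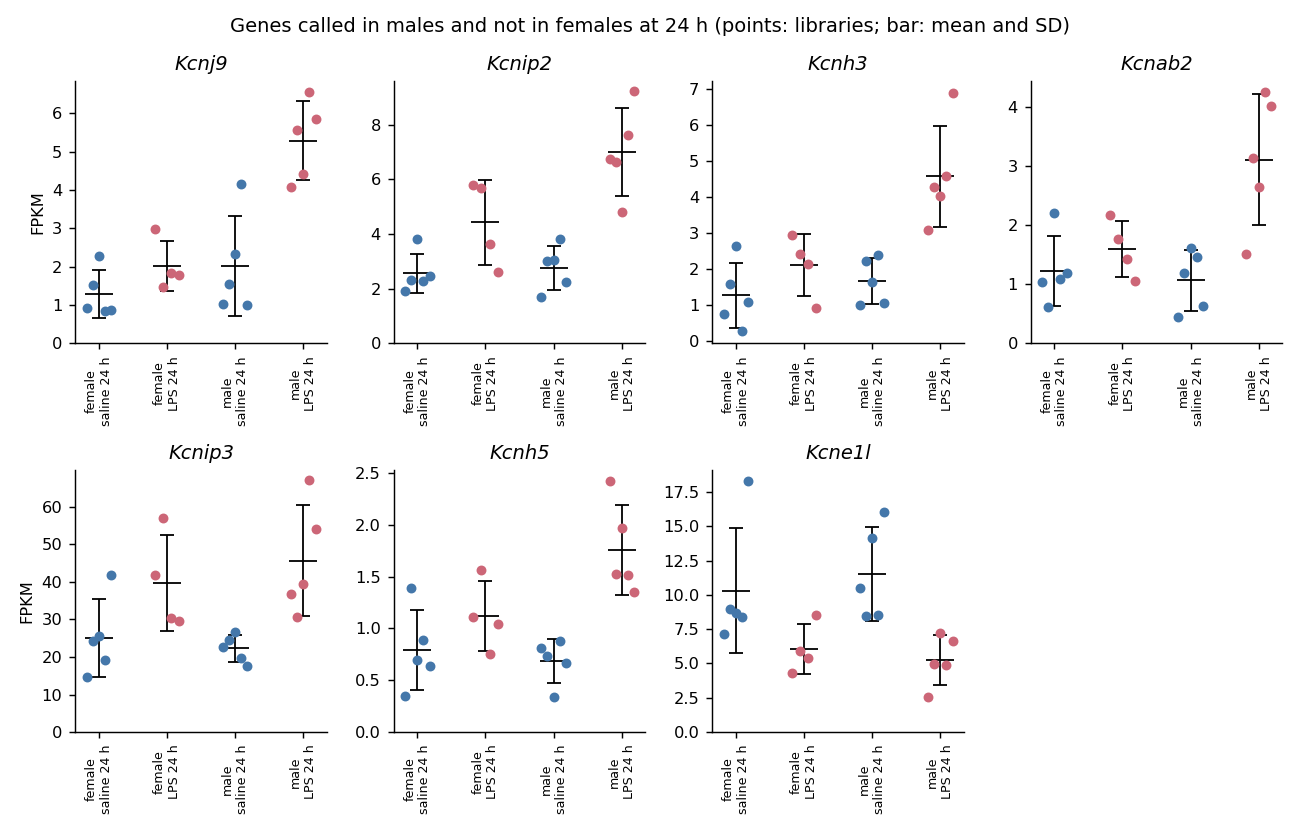
FPKM at 24 h of 7 members called in males and not in females (points are libraries, blue for saline and red for LPS, with the mean and SD of each group). For Kcnip2, Kcnip3, Kcnh3, Kcnh5 and Kcne1l the male groups do not overlap, and for Kcnj9 and Kcnab2 they overlap at the edge.

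The sequence just upstream of 4 called genes is shown because these genes were called in both sexes (Kcnd3), called lower (Kcne1l), or hold, alone among the called members searched, a match to the STAT motif TTCNNNGAA (Kcnj9, Kcnip3). RefSeq promoter windows on GRCm38.p6, 250 bases before to 50 after the start, were matched by symbol for 43 of the 61 genes, 64 windows in all. No window of Kcnt1 was used, and none is shown for Kcng2. Capitals mark matches to TTCNNNGAA or TATAAA on the listed strand or its complement, and the 2 motifs do not overlap in these windows. The windows are Kcnj9 at chr1:172329273-172329572 (minus strand), Kcnip3 at chr2:127522045-127522344 (minus strand, 1 of 3 windows), Kcnd3 at chr3:105451640-105451939 (plus strand) and Kcne1l at chrX:142306149-142306448 (minus strand).
Kcnj9: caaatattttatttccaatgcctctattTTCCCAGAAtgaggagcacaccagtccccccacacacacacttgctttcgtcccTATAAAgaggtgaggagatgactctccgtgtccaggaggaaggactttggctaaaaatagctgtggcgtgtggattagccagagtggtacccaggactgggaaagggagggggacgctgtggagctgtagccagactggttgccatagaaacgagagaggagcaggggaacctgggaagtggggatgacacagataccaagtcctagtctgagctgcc
Kcnip3: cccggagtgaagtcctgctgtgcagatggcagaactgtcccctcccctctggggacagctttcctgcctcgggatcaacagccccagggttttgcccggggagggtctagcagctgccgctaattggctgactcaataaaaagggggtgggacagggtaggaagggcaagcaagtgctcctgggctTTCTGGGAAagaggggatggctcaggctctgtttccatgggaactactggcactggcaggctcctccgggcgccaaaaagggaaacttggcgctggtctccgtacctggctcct
Kcnd3: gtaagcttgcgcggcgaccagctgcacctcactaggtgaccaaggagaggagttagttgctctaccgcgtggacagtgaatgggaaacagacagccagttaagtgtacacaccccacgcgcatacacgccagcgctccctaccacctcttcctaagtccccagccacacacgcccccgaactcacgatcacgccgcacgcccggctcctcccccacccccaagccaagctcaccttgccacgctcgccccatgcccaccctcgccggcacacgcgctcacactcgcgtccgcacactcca
Kcne1l: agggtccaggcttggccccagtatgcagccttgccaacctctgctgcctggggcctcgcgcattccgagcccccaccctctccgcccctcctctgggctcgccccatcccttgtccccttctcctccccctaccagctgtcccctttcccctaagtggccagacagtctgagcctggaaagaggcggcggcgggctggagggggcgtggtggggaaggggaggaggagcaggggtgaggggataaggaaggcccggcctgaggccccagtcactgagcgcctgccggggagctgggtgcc
TTCNNNGAA, which reads the same on both strands, occurred in 8.3% of all 32851 windows and in 9.38% of the 64 member windows. TATAAA occurred in 13.6% and 6.25%, and the C/EBP motif TTGCNNAA in 10.8% and 4.69%, each counted on both strands. The Kcnd3 and Kcne1l windows held none of the 3, which says only that these letters are not in them. The member windows had a median of 9.5 CpG dinucleotides and 59.0% G and C, against 7 and 52.7% over all windows. A match is a description of letters, and binding was not measured.

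The 3 genes that limma called in both sexes at 24 h were Kcnt1, Kcnd3 and Kcng2. The authors' deposited results also called Kcnt1 and Kcng2 in both sexes, but Kcnd3 in females only. The log2 fold changes of females and males, which have separate saline groups, had the same sign in 41 of the 61 genes, 30 above 0 in both and 11 below 0 in both. The share of all genes with the same sign was not computed. Values above 0 were found in 55.7% of the 61 in females and 75.4% in males. Over all genes tested these shares were 56.1% and 63.9%, so some agreement in sign arises from the shift of all genes. The difference between the sexes was tested directly. No member was called, and 0% of all genes tested were, so the calls made in males and not in females do not show a difference between the sexes. With no adjustment 4 of the 61 had p under 0.05, as did 3.97% of all genes. The authors' deposited comparison of female with male LPS libraries called 5 members lower in females, Kcnh3, Kcnh4, Kcnj9 and Kcnh1 among them, and 0.843% of all genes.

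**Figure D4:**
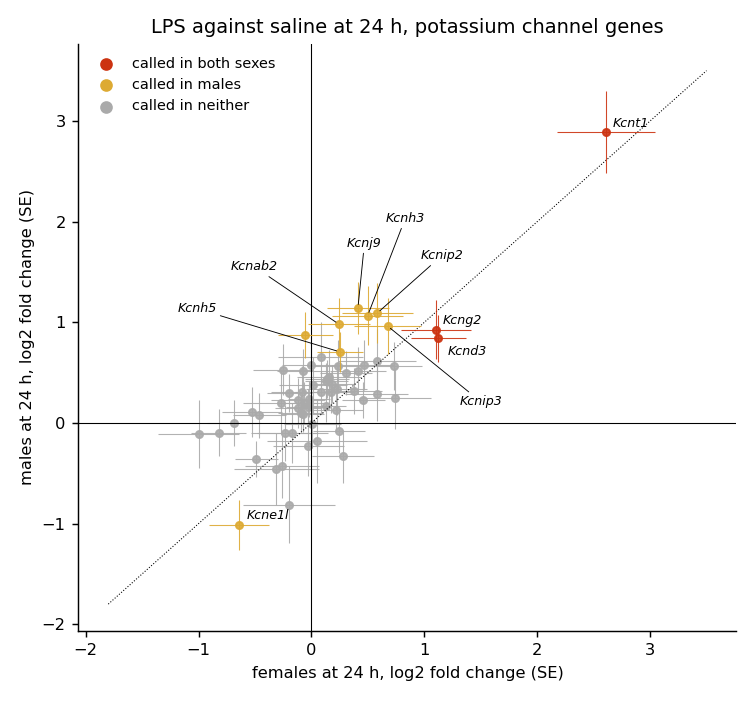
Log2 fold change of LPS against saline at 24 h in females (horizontal) and males (vertical) for the 61 potassium channel genes, with SE bars and a dotted line of equality. Kcnt1 stands apart at 2.61 and 2.89, and Kcnd3 and Kcng2 are the other genes that limma called in both sexes.

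At 72 h none of the 61 genes was called, by limma or in the authors' deposited DESeq2 results, where limma called 0.0772% of all genes tested and the authors' deposited results 0.75%. With no adjustment 5 members had p under 0.05 (Kcng1, Kcnh3, Kcnh5, Kcnip2 and Kcnj9), as did 5.38% of all genes. The log2 fold change was below 0 in 44 of the 61, with a median of -0.15 against -0.10 for all genes. Without saline replicates 3 and 4 both medians turned positive, at 0.05 for the 61 and 0.05 for all genes. The mean under LPS was the higher one for 1 of 13 neuronal, 1 of 10 oligodendrocyte and 1 of 10 oligodendrocyte precursor markers, and for 13 of 14 microglial and 11 of 12 endothelial markers. The summed levels overlapped between the groups for all 5 lists, the microglial at 560.4 to 908.9 FPKM with LPS and 243.0 to 567.7 with saline and the neuronal at 223.6 to 374.0 and 292.6 to 418.2, and their part in these values was not tested. Kcnt1 held 19.6, 5.47 and 4.66 FPKM with LPS and 6.37, 8.53, 13.1 and 18.3 FPKM with saline, a difference of -0.37 ± 0.49. The highest and the lowest values of all 7 libraries were both in the LPS group. Kcna2 held 17.2, 17.9 and 9.57 FPKM with LPS and 32.2, 36.3, 23.0 and 24.0 FPKM with saline. These groups did not overlap, but the difference of -0.93 ± 0.46 had a limma adjusted p of 0.923.

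The saline libraries at 72 h were themselves uneven. Kcnip2 held 4.04 and 3.44 FPKM in replicates 1 and 2 and 13.2 and 13.0 FPKM in replicates 3 and 4, the libraries of low mitochondrial share. Kcnab2 held 1.10 and 1.13 against 3.37 and 4.82 FPKM in the same order, and Kcnj8 held 1.41 and 1.37 against 2.98 and 2.91 FPKM. In 36 of the 61 genes (59.0%) replicates 3 and 4 both lay above replicates 1 and 2, as did 51.1% of all genes tested. Leaving out replicates 3 and 4 left the count at 72 h at 0.

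The change between times was tested as a difference of LPS effects in females. From 24 h to 72 h, 1 of the 61 genes was called, where 0.345% of all genes tested were. The effect on Kcnt1 was lower at 72 h by a log2 difference of -2.97 ± 0.66 (limma adjusted p = 0.0301). This call was lost in 15 of 31 alternatives, among them leaving out any one of 10 of the 16 libraries (adjusted p up to 0.154) and leaving out saline replicates 3 and 4 at 72 h (-2.49, adjusted p = 0.327). From 3 h to 24 h no member was called, where 0.71% of all genes were, and 7 members (11.5%) had p under 0.05 with no adjustment, as did 8.57% of all genes. For Kcnt1 that difference was 1.86 ± 0.61 (adjusted p = 0.224). At 3 h itself its LPS libraries held 19.7, 9.54, 10.8, 13.4 and 12.9 FPKM and its saline libraries 7.89, 7.65, 4.72 and 9.79 FPKM. One LPS library fell inside the saline range, and the difference of 0.74 ± 0.43 was not called.

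**Figure D5:**
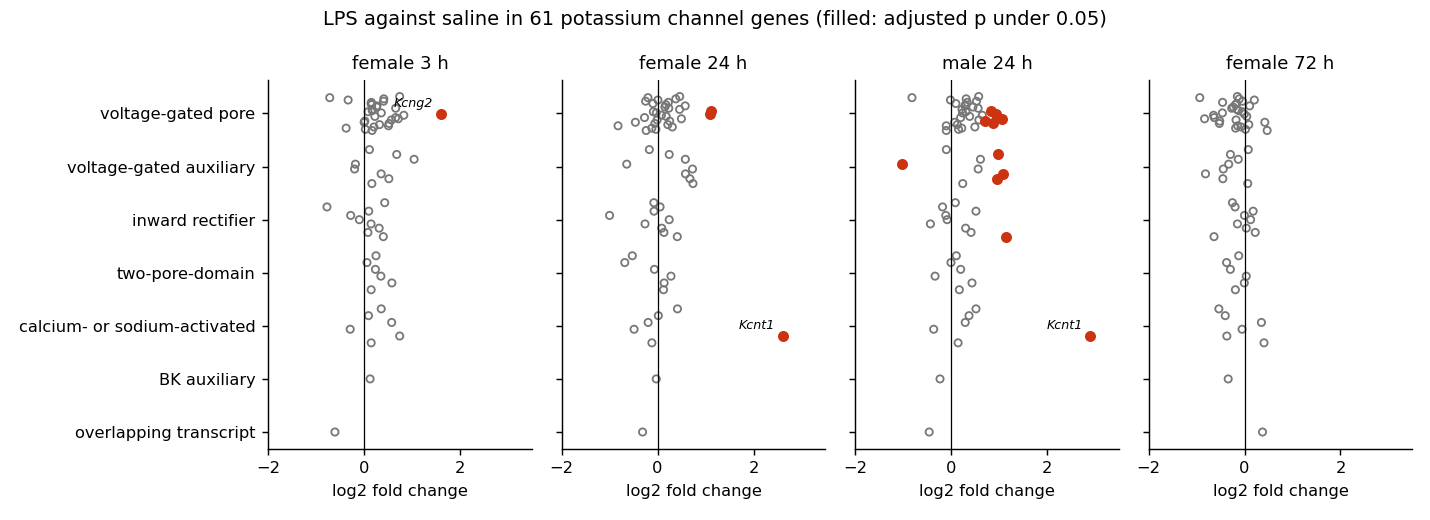
Log2 fold change of LPS against saline for each of the 61 potassium channel genes (1 point each), by family, in 4 comparisons; filled points passed an adjusted p of 0.05. Kcng2 at 3 h and Kcnt1 at 24 h in both sexes have the largest values, the auxiliary and voltage-gated pore subunits hold most of the other calls in males, and no point is filled at 72 h.

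Genes that work alongside potassium channels were looked at in a list of 50 pumps, transporters, channel partners and gap junction genes, of which 42 were in the table. At 3 h and at 72 h none was called. In females at 24 h 1 was called, where 3.34% of all genes were: Gjb6, which encodes the gap junction protein connexin 30, higher by 0.88 ± 0.26 (limma adjusted p = 0.0491). In males at 24 h 3 of the 42 were called, no larger a share than the 8.9% of all genes, and all were higher: Fxyd1 by 1.06 ± 0.26 and Fxyd5 by 1.60 ± 0.32, regulators of the sodium-potassium pump, and Lgi4, a secreted glial protein, by 0.98 ± 0.26. The pump subunit gene Atp1b2 (0.52 ± 0.28 in females, 0.77 ± 0.26 in males) was not called at 24 h. The chloride cotransporter gene Slc12a2 (-0.31 ± 0.23 and -0.47 ± 0.22) and the sulfonylurea receptor gene Abcc8 (0.31 ± 0.28 and 0.71 ± 0.26) were not called either.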

How the data were processed

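Per the submitters' processing notes, reads were handled with HISAT2, StringTie and DESeq2 on build mm10; versions and parameters are not given in the sources used here. The authors deposited FPKM per gene and library, together with log2 fold changes and adjusted p-values of their own comparisons, which are printed only where named as theirs. Raw counts were not used, so read depth is unknown and no counting interval is given. Of 19584 entries, 11 repeats of a gene identifier were dropped. The 19426 genes that reached an FPKM of 1 in 3 or more libraries were fitted with limma 3.58.1 in R 4.3.3 on log2(FPKM + 1), with 1 coefficient for each of 8 groups, an intensity trend and two-sided moderated tests, after the code was tested on simulated data. The Benjamini-Hochberg adjustment ran over all genes within a contrast.

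Named genes are the 10 highest in saline, called members up to 8 per comparison and direction, members called in a difference of effects, and a fixed list of astrocyte channels. The members and the lists were chosen with earlier results of these data known. Positions and overlaps come from GENCODE M21, promoter windows from RefSeq. Other pseudocounts, filters, scalings, covariates, number formats and the omission of each library were tried. Some genes are not reported here.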

Additional observations from a re-analysis of the deposited data

Results flagged for a closer look

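Within groups of 4 or 5 libraries, the highest or lowest library was compared with its nearest neighbour for 23 members named here. A gap large against the range of the group was found in 13 of 161 pairs of a gene and a group. The rate of about 1 in 20 by chance holds for normally distributed values. The values here were FPKM without a log scale, and the same libraries recur across genes. The count therefore cannot be judged against that rate.

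In females with saline, Kcnn3 at 24 h reached 27.0 FPKM in replicate 4 (15.0 to 17.3 in the others), Kcne1l at 24 h reached 18.3 FPKM in replicate 5 (7.17 to 8.96) and Kcnip2 at 24 h reached 3.81 FPKM in replicate 3 (1.92 to 2.46). Kcnma1 at 3 h reached 9.91 FPKM in replicate 1 (6.22 to 6.48) and Kcnh3 at 3 h reached 5.17 FPKM in replicate 4 (1.27 to 1.92).

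In females with LPS at 3 h, Kcne1l was lowest in replicate 4 at 6.22 FPKM (13.5 to 14.7 in the others), and Kcnma1 was highest in the same library at 14.3 FPKM (8.03 to 8.98). Replicate 4 is a library of low mitochondrial share.

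In females with LPS at 24 h, replicate 4 was lowest for Kcnk2 at 4.71 FPKM (9.0005 to 9.81 in the others) and highest for Kcnk13 at 0.725 FPKM (0.247 to 0.289). Kcnj8 was lowest in replicate 1 at 0.350 FPKM (0.781 to 0.842), and Kcna6, which encodes Kv1.6, was highest in replicate 3 at 4.47 FPKM (2.80 to 3.07). In males with LPS, Kcna6 reached 9.33 FPKM in replicate 1 (3.22 to 4.91) and Kcnd2, which encodes Kv4.2, reached 6.27 FPKM in replicate 5 (4.72 to 5.02).

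The effect of LPS on Kcnt1 in females differed between 24 h and 72 h by a log2 difference of -2.97 (limma adjusted p = 0.0301). That was a test of the difference itself. The call was lost in 15 of 31 alternatives, among them leaving out any one of 10 of the 16 libraries.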

How the results depend on the processing

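No value changed sign past the threshold under any alternative. The count of members called in females at 3 h (1 as reported) became 0 with a pseudocount of 0.1, and 2 with the 3 h libraries alone or with number format as a covariate. In females at 24 h (3) it became 0 in double-precision libraries alone and 5 with the mitochondrial share as a covariate, and ran from 2 to 6 when a library was left out, 6 being without LPS replicate 4. In males at 24 h (11) it became 7 with median scaling, 3 in single-precision and 1 in double-precision libraries, and 2 with the mitochondrial share. Leaving out a male library gave 5 to 12, with 5 without saline replicate 1 or 5 and 6 without LPS replicate 4 or 5. For the change from 3 h to 24 h (0) it became 1 with median scaling, quantile normalization, number format or mitochondrial share, and 0 to 2 leaving out a library (1 without saline replicate 4 or LPS replicate 3 at 3 h, 2 without LPS replicate 4 at 24 h). For the change from 24 h to 72 h (1) it became 0 with the contrast's groups alone, double-precision libraries alone, the mitochondrial share, or without saline replicates 3 and 4 at 72 h, and 0 to 2 leaving out a library. The neuronal covariate and the omission of libraries of low mitochondrial share at 3 h and 72 h were chosen after seeing the data. Without those saline replicates the median log2 fold change of the 61 genes at 72 h turned from -0.15 to 0.05. Causes were not tested.

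With replicate number as a block the counts were 1, 2, 12 and 0 in the 4 LPS comparisons, and 0 for the change from 24 h to 72 h. The deviations of same-numbered libraries had correlations from -0.40 to 0.37, of either sign, and these were not tested. The labels do not say that equal numbers are a pair, so the block pairs numbers, not known animals.

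Of 81 values of named genes that were not called, 6 of 1773 alternatives passed the threshold, for example Kcnj8 in males without LPS replicate 2 (0.56, adjusted p = 0.0415). Number of libraries and unknown read depth limit the genes near 0, Kcng2 first.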
